A study of Mus musculus with 12 samples.

Results

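The genes described here encode enzymes known to make, activate or inactivate progesterone, estrogens, androgens and glucocorticoids, and their RNA was measured in the cervix. They are Srd5a1, Akr1c18, Hsd17b2, Hsd17b4, Hsd17b11, Hsd11b1, Hsd11b2, Sts, Cyp11a1 and Hsd3b1, and were taken by gene symbol from the array's annotation. Of the 10 genes, 8 had at least 1 probe set, with 13 probe sets between them, while Srd5a1 and Sts had none under their symbol and were not analysed here. Where a gene had several probe sets, the brightest on average was used. A log2 intensity above 4 on at least 6 arrays was required for testing, and 5 of the 8 genes met it, beside 8795 of 18194 genes in all.

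The samples were total cervical RNA from pregnant CD1 mice, an outbred strain, labelled gestation day 15. One group of 6 arrays came from dams given medroxyprogesterone acetate (MPA), a synthetic progestin, at 1 mg per dam under the skin. The other 6 came from dams given the same volume of its ethanol vehicle. Exposure lasted 48 h in the protocol, and the labels do not say whether day 15 is the day of injection or of tissue collection. Whether every array stands for a separate dam is not stated either, and the p-values below therefore cover sample-to-sample spread that could be partly technical. The labels name no other allele or agent. MPA was given to intact pregnant animals, whose own progesterone was present in both groups.

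Tissue levels of a steroid depend on local conversion as well as on supply. In mice, Srd5a1 and Akr1c18 turn progesterone into products that the progesterone receptor binds poorly, and loss of Srd5a1 prevents normal cervical ripening. Hsd11b1 regenerates active glucocorticoid from its inert keto form, while Hsd11b2 runs the opposite reaction and shields the mineralocorticoid receptor. The Hsd17b enzymes oxidise or reduce the hydroxyl group that makes estradiol and testosterone active. Sts frees steroids from sulfate, and Cyp11a1 and Hsd3b1 carry out the early steps by which cholesterol becomes progesterone.

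Median intensities of the 12 arrays ran from 6.62 to 6.86 on the linear scale, and between 8583 and 8960 genes exceeded a log2 value of 4. The first principal component over the genes tested held 48.5% of the variance. MPA 2 lay at -57.3, vehicle 4 at -32.0 and vehicle 5 at -23.2 on it, and MPA 5 lay at the other end with 41.5. Markers of stratified and columnar epithelium and of stroma were present. All 9 basal epithelial markers with a probe set passed the filter, as did 9 of 10 columnar, 9 of 9 fibroblast and 10 of 10 smooth muscle markers. The macrophage list had 7 of 10, mast cells 2 of 6 and endothelium 1 of 8. None of 4 markers of decidua and placenta, 5 of the adrenal or 4 of T cells passed. Of 4 ovarian markers 1 passed, Inhba, an activin subunit made in many tissues. The ovarian marker Cyp17a1, needed for androgen synthesis, reached at most a log2 value of 2.35.

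Promoter sequences, credited to RefSeq (GRCm38.p6), matched 6 of the 10 enzymes by symbol and cover 250 bases before to 50 after a gene's start. They are shown for the 3 enzymes with an entry whose levels varied together over the arrays, so that their composition can be compared. Capitals mark CpG dinucleotides, the sites of vertebrate DNA methylation. Akr1c18 lies at chr13:4150597-4150896, Hsd11b1 at chr1:193242311-193242610 and Hsd17b11 at chr5:104021747-104022046, each on the minus strand and written 5′ to 3′ along the gene.
Akr1c18: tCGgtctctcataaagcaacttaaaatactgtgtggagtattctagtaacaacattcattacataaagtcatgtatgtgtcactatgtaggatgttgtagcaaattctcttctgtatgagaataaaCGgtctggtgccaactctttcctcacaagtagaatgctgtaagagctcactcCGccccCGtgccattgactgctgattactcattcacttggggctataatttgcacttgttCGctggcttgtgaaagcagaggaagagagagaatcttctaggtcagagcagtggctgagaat
Hsd11b1: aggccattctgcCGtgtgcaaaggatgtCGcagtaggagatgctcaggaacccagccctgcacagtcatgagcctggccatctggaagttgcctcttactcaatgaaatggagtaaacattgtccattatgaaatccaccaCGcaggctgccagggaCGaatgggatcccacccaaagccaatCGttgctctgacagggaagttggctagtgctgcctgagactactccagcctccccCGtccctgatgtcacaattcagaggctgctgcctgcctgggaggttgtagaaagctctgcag
Hsd17b11: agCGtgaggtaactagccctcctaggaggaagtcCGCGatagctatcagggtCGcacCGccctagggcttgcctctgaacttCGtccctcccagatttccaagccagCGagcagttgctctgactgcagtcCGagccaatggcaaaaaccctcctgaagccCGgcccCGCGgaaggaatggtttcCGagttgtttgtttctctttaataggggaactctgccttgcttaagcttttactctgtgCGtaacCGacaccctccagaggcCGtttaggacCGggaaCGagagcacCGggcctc

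The Hsd17b11 window held 18 CpG sites, against 6 for Hsd11b1 and 5 for Akr1c18, where the median of 32851 mouse promoter windows of the same length was 7. Its GC content was 57.0%, that of Hsd11b1 54.7% and that of Akr1c18 42.3%, against a median of 52.7%. The half-site shared by the progesterone, glucocorticoid and androgen receptors was searched as TGTTCT on both strands. It was found in none of the 3 windows, and 19.0% of all windows hold it. The TATA box letters TATAAA, again on both strands, were absent from all 3, and 13.6% of windows hold them. A CCAAT box began at position -72 in Hsd11b1 and at -115 in Hsd17b11, counted along the gene with its start at 0. Akr1c18 had no match, and 37.4% of windows hold CCAAT on 1 strand or the other. The 3 motifs were searched separately, and a match in a short window is a description of the letters alone.

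Comparison of MPA with vehicle asks whether a progestin alters the machinery that makes or removes steroids in the pregnant cervix. No enzyme passed the test. By limma with Benjamini-Hochberg adjustment over all genes, 0 of the 5 tested enzymes were called at an adjusted p under 0.05, where 0.0114% of all genes were called (1 of 8795). At an unadjusted p under 0.05 there were again 0 of 5, against 5.00% of all genes. The 6 MPA and 6 vehicle arrays overlapped for every one of the 5, while 0.341% of all genes had groups that did not overlap. The median log2 difference (MPA minus vehicle) was 0.01 over the 5 enzymes and 0.02 over all genes tested, with 3 enzymes higher and 2 lower. The median of the 5 was 0.58 without MPA 2, and -0.60 over the 4 arrays of fluidics station 2, a unit of the array washing equipment named in the file headers. Station 1 held vehicle arrays only and station 4 MPA arrays only. Outside station 2, treatment and station therefore cannot be told apart, which limits every difference given here. By the clock time of the scan, the MPA arrays came 6th to 11th and the vehicle arrays 1st to 5th and 12th. What set the enzymes apart from one another was how far the arrays of a single group spread.

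**Figure D1:**
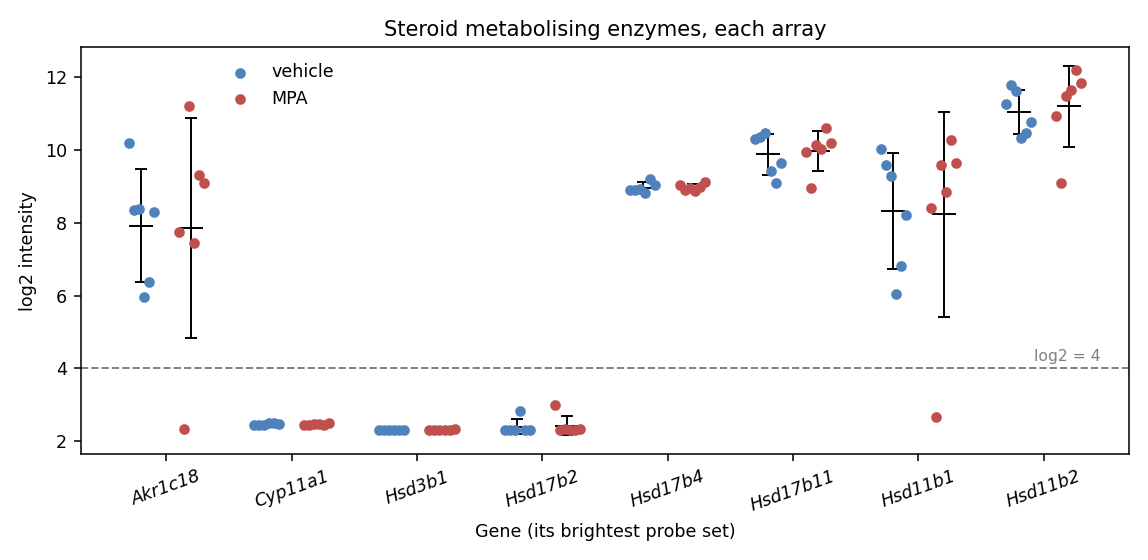
Log2 intensity of the 8 enzymes with a probe set on each of the 6 vehicle (blue) and 6 MPA (red) arrays; black bars are the mean and SD of a group and the dashed line marks the log2 value of 4. Akr1c18 and Hsd11b1 range from 2.34 to 11.19 and from 2.66 to 10.28, Hsd17b4 stays between 8.82 and 9.21, and Cyp11a1, Hsd3b1 and Hsd17b2 lie under the dashed line on every array.

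Progesterone removal was represented by Akr1c18, a member of the aldo-keto reductase family whose level in the rodent ovary rises before birth. Its log2 intensity in vehicle had a lowest value of 5.96 (vehicle 4), a median of 8.32 and a highest of 10.18 (vehicle 1). In MPA it had a lowest value of 2.34 (MPA 2), a median of 8.41 and a highest of 11.19 (MPA 3). The highest and lowest arrays both came from MPA, and the vehicle range lay inside the MPA range. MPA averaged 7.85 ± 3.01 (SD, n = 6), and vehicle 7.92 ± 1.54 (SD, n = 6). The log2 difference, MPA minus vehicle, was -0.07 (SE 1.25, 95% interval -2.78 to 2.63, adjusted p = 1.00 by limma). That interval includes a log2 difference of 2 in either direction. MPA 2 was the single array not above the log2 value of 4, and on the linear scale the highest array exceeded the second lowest, vehicle 4, 37.4-fold. Leaving out MPA 2 turned the difference to 1.03, and within fluidics station 2, which holds MPA 1, MPA 2, vehicle 5 and vehicle 6, it was -2.29; neither was called.

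Enzymes of the early steps toward progesterone lay at the bottom of the scale. Cyp11a1, the side-chain cleavage enzyme of mitochondria, ranged from 2.44 to 2.51 over the 12 arrays by its brightest probe set, and its 2 other probe sets stayed between 2.35 and 2.41. Hsd3b1, which converts pregnenolone to progesterone, ranged from 2.32 to 2.33. The lowest value in the whole table is 2.13. Neither gene exceeded a log2 value of 4 on any array, in MPA or vehicle, so that their order among samples has no meaning and no fold change is given. Hsd17b2, which inactivates estradiol and testosterone by oxidation, likewise stayed under 4 everywhere. It lay between 2.31 and 2.33 on 10 arrays, at 2.84 in vehicle 4 and at 2.99 in MPA 1.

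By its brightest probe set, Hsd17b4 was the steadiest of the 5. It encodes the multifunctional enzyme of peroxisomal fatty acid oxidation, which also oxidises estradiol. Vehicle arrays had a lowest value of 8.82, a median of 8.91 and a highest of 9.21, and MPA arrays a lowest of 8.88, a median of 8.97 and a highest of 9.11. The MPA arrays thus lay within the span of the vehicle arrays. Means of 8.98 ± 0.09 (SD, n = 6) and 8.96 ± 0.14 (SD, n = 6) differed by 0.01 in log2 (SE 0.08, 95% interval -0.16 to 0.19, adjusted p = 1.00 by limma). A second bright probe set gave 0.01 as well, although its values over the 12 arrays correlated with the first at only r = 0.394. It ranged from 7.76 to 8.61, more widely than the first. The interval of the first is the narrowest of the 5.

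Hsd17b11 encodes a lipid droplet dehydrogenase able to oxidise androgen metabolites. Its log2 intensity was lowest at 9.09, had a median of 9.97 and was highest at 10.46 in vehicle. In MPA the lowest array had 8.94, the median was 10.08 and the highest array had 10.59. Low values came from both groups, MPA 2 with 8.94, vehicle 5 with 9.09 and vehicle 4 with 9.42, while the other MPA arrays started at 9.94. MPA averaged 9.96 ± 0.55 (SD, n = 6), and vehicle 9.88 ± 0.57 (SD, n = 6). Their log2 values differed by 0.09 (SE 0.30, 95% interval -0.56 to 0.73, adjusted p = 1.00 by limma). Another probe set above 4 on 11 arrays followed the first with r = 0.897 and had 0.18. The remaining probe set stayed under 4 throughout.

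Glucocorticoid conversion runs through an opposed pair, and both of its members were measured. Hsd11b1, the activating enzyme, had a lowest vehicle value of 6.04 (vehicle 4), a median of 8.75 and a highest of 10.01 (vehicle 1). Its MPA values had a lowest of 2.66 (MPA 2), a median of 9.21 and a highest of 10.28 (MPA 5). Apart from MPA 2, again the single array not above 4, the MPA arrays lay between 8.40 and 10.28, with an SD of 0.73 in place of 2.81. MPA averaged 8.24 ± 2.81 (SD, n = 6), and vehicle 8.32 ± 1.60 (SD, n = 6). The difference was -0.09 (SE 1.19, 95% interval -2.67 to 2.50, adjusted p = 1.00 by limma). It moved to 1.03 without MPA 2 and to -1.98 within station 2, and was not called in either setting.

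Hsd11b2, the inactivating enzyme, had a lowest value of 10.31 (vehicle 4), a median of 11.02 and a highest of 11.77 (vehicle 2) in vehicle. In MPA the lowest was 9.09 (MPA 2), the median 11.56 and the highest 12.18 (MPA 5). As with Hsd11b1, the extremes were both MPA arrays and the vehicle arrays lay between them. MPA averaged 11.19 ± 1.11 (SD, n = 6), and vehicle 11.03 ± 0.61 (SD, n = 6). In log2 they differed by 0.16 (SE 0.47, 95% interval -0.86 to 1.18, adjusted p = 1.00 by limma), and went to 0.58 without MPA 2 and to -0.60 within station 2.

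An exact two-sided permutation test over the 12 arrays, which takes no account of the other genes, gave unadjusted p-values of 0.970 for Akr1c18, 0.959 for Hsd11b1, 0.842 for Hsd17b4, 0.788 for Hsd17b11 and 0.777 for Hsd11b2. The smallest p that this design allows is 0.00216. For Akr1c18 and Hsd11b1 the intervals above span several-fold changes in both directions, and a p of this size does not show that MPA left them as they were.

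**Figure D2:**
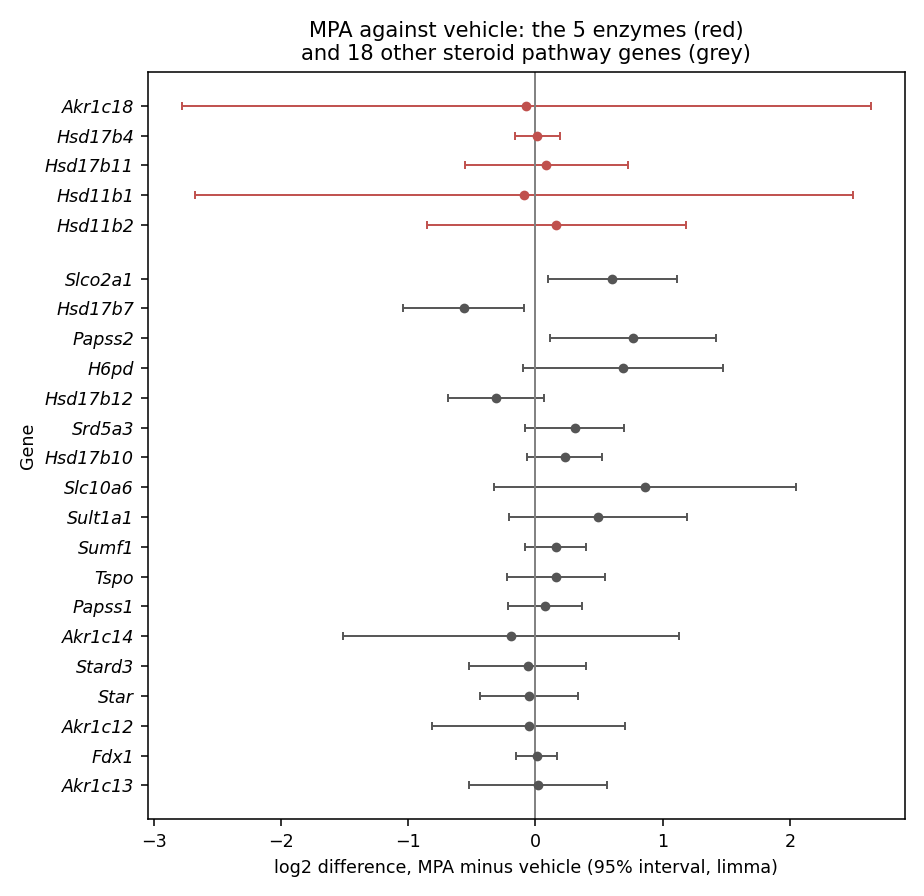
Log2 difference, MPA minus vehicle, with its 95% interval by limma, for the 5 tested enzymes (red) and 18 other steroid pathway genes (grey, ordered by p). The intervals of Akr1c18 (-2.78 to 2.63) and Hsd11b1 (-2.67 to 2.50) are the widest shown and that of Hsd17b4 runs from -0.16 to 0.19; none of the 23 genes was called over all genes.

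Spread within a group, pooled over MPA and vehicle, ranked Akr1c18 9th and Hsd11b1 12th of 8795 genes. Their within-group SDs were 2.39 and 2.29 on the log2 scale, against a median of 0.247 over all genes tested. Hsd11b2 ranked 348th with 0.895 and Hsd17b11 1082nd with 0.560, so that 96.0% and 87.7% of genes varied less. At the other extreme, 7.24% of genes varied less than Hsd17b4, whose SD by its brightest probe set was 0.116. The exact ranks of Akr1c18 and Hsd11b1 rest in part on MPA 2, where neither exceeded 4. Without it, a setting added after seeing the data, Akr1c18 ranked 27th with an SD of 1.52 and Hsd11b1 53rd with 1.29, against a median of 0.234. Hsd11b2 then ranked 732nd with 0.549, Hsd17b11 1221st with 0.456 and Hsd17b4 7973rd with 0.118. The vehicle group, which does not hold MPA 2, had an SD of 1.60 for Hsd11b1 and 1.54 for Akr1c18.

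The variable enzymes shared their 3 lowest arrays, and less of their order above these. MPA 2 was the lowest of the 12 arrays for Akr1c18, Hsd17b11, Hsd11b1 and Hsd11b2, and vehicle 4 and vehicle 5 were the next lowest for all 4. MPA 5 was the highest for Hsd17b11, Hsd11b1 and Hsd11b2, and MPA 3 for Akr1c18. MPA 3 was only 7th from the lowest for Hsd17b11 and Hsd11b2, and vehicle 1 was 11th for Akr1c18 and Hsd11b1 but 6th for Hsd11b2. The 3 lowest arrays thus came from both treatments and from fluidics stations 1 and 2. Vehicle 6 and MPA 1, which like MPA 2 and vehicle 5 belong to station 2, came next. They were 4th and 5th from the lowest for Hsd17b11, Hsd11b1 and Hsd11b2, and 6th and 5th for Akr1c18. All arrays of station 2 thus lay low for these enzymes, and the part of station in this shared order was not tested. All 6 pairs among these 4 genes passed an adjusted permutation p under 0.05, over 10 pairs computed. Of the 4 pairs with Hsd17b4, 0 did. The permutations shuffled all 12 arrays without regard to station. Their p-values therefore cannot tell an offset shared by the arrays of a station from a relation between the genes. Some of these relations were shared by many genes. Of all genes tested, 6.52% had an r with Akr1c18 at least as large in size as that of Hsd17b11. For Hsd11b2 this share was 4.17% and for Hsd11b1 0.034%. With MPA 2 and MPA 5 left out 4 pairs passed, and the pairs of Akr1c18 with Hsd17b11 (adjusted permutation p = 0.0677) and with Hsd11b2 (adjusted permutation p = 0.114) did not. These relations were examined after the values had been seen.

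Hsd11b1 and Hsd11b2 had Pearson's r = 0.954 (permutation p = 2e-05, adjusted p = 5e-05) and rho = 0.846 (permutation p = 0.00099, adjusted p = 0.00247) over 12 arrays. Within MPA r was 0.979 and within vehicle 0.905, and without MPA 2 and vehicle 4, the arrays farthest from the median of Hsd11b1, it was 0.860. Of the genes tested, 0.432%, Hsd11b1 itself included, had an r with Hsd11b1 at least this large in size. Akr1c18 and Hsd11b1 had r = 0.936 (permutation p = 2e-05, adjusted p = 5e-05) and rho = 0.916 (permutation p = 9e-05, adjusted p = 9e-04), with 0.938 within MPA, 0.936 within vehicle and 0.921 without MPA 2 and MPA 3. Hsd17b11 followed Hsd11b2 with r = 0.922 (permutation p = 2e-05, adjusted p = 5e-05) and rho = 0.867 (permutation p = 0.00061, adjusted p = 0.00203), and r stayed at 0.897 without MPA 2 and vehicle 5. By contrast Hsd17b4, by its brightest probe set, had r = 0.129 with Hsd11b1 (permutation p = 0.682, adjusted p = 0.758) and rho = 0.182 (permutation p = 0.573, adjusted p = 0.653), with r = 0.345 without MPA 6 and vehicle 5. Its second bright probe set was not correlated with the enzymes or the marker means, so the contrast holds for 1 probe set only. A fluidics station holds 4 arrays, too few for a correlation of its own.

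**Figure D3:**
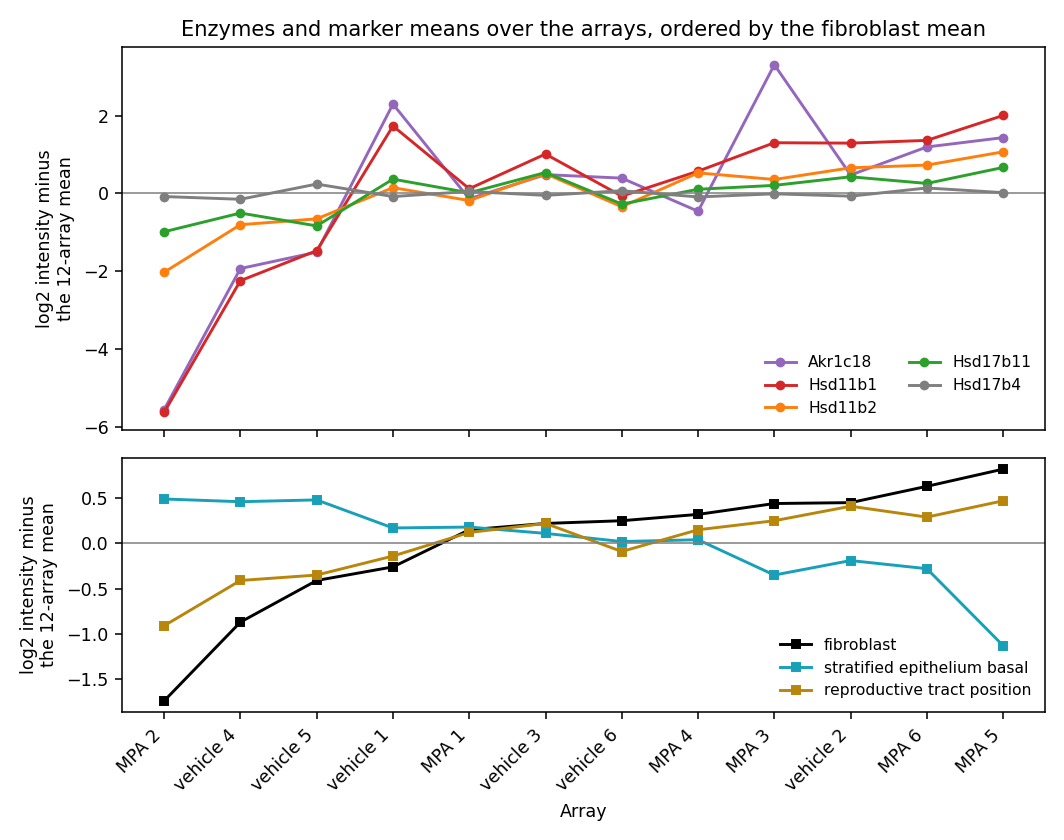
Upper panel, log2 intensity of the 5 enzymes on each array minus their 12-array mean; lower panel, the means of the fibroblast, basal epithelial and reproductive tract position markers, centred in the same way. Arrays are ordered by the fibroblast mean, from MPA 2 (-1.74) to MPA 5 (0.82). Akr1c18, Hsd11b1, Hsd11b2 and Hsd17b11 are lowest on MPA 2, while Hsd17b4 stays flat by its brightest probe set.

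Tissue makeup of the arrays was measured beside the enzymes through marker means, each marker being centred over the 12 arrays before averaging. The 9 fibroblast markers ran from -1.74 (MPA 2) to 0.82 (MPA 5) in MPA and from -0.87 to 0.45 in vehicle. The 10 smooth muscle markers ran from -1.72 to 0.84 in MPA and from -0.70 to 0.48 in vehicle. Basal epithelial markers ran the other way, from -1.13 (MPA 5) to 0.49 (MPA 2) in MPA and from -0.19 to 0.48 in vehicle. Macrophage and monocyte markers, 7 genes, ran from -0.93 (MPA 2) to 0.85 in MPA and from -0.63 to 0.14 in vehicle. This list had the largest group difference of the 6 means, 0.563 (MPA minus vehicle), against 0.203 for fibroblast and -0.352 for basal epithelial markers. Apart from MPA 2, each MPA array lay above each vehicle array for it, and its part in the enzyme differences was not tested. In bulk RNA, fewer cells of a type and less RNA per cell cannot be told apart.

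Of 30 relations between the 5 enzymes and 6 marker means, 23 passed an adjusted permutation p under 0.05, none of them with Hsd17b4. Relations of this size were not rare among genes: for the 23, the share of all genes tested with an r at least as large in size with the same mean ran from 0.318% to 24.6%, with a median of 10.5%. Nor were the marker means separate measures. Fibroblast, smooth muscle and position means were all lowest on MPA 2 (-1.74, -1.72 and -0.91) and highest on MPA 5 (0.82, 0.84 and 0.47). The 23 relations therefore overlap and do not stand for as many separate cell type patterns. Their permutations, too, took no account of station. Fibroblast, smooth muscle, macrophage and position means had a positive r with Akr1c18, Hsd11b1, Hsd11b2 and Hsd17b11, and both epithelial means a negative one. For these 4 enzymes, r had the same sign in MPA and in vehicle in all 24 relations. Without MPA 2 and MPA 5 the number past the threshold was 9. These include Akr1c18 with basal epithelium (adjusted permutation p = 0.0449), which was not among the 23 (adjusted permutation p = 0.053). No other relation of Akr1c18 passed then, and none of any enzyme with the smooth muscle or macrophage mean.

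Hsd11b2 tracked the position markers most closely. This list holds Hoxa10 and Hoxa11, homeobox genes that pattern the uterus and upper tract, with Emx2, Pax8, Pgr and Esr1. Its mean moved mainly with Hoxa10, from 5.01 to 8.77 over the arrays, and Hoxa11, from 2.65 to 6.73. The others varied less, Emx2 from 7.35 to 8.25, Pax8 from 4.91 to 5.81, Pgr from 10.3 to 10.9 and Esr1 from 9.72 to 10.4. The relation is thus no measure of tract position itself. Pearson's r was 0.965 (permutation p = 2e-05, adjusted p = 6e-04) and rho 0.944 (permutation p = 2e-05, adjusted p = 6e-04), and r was 0.896 without MPA 2 and vehicle 4. Of all genes tested, 0.318% had an r at least that large in size with the same mean. Hoxa13, the homeobox gene of the lowest tract, did not exceed 2.52 on any array and did not enter the mean. With the fibroblast mean, Hsd11b2 had r = 0.941 (permutation p = 4e-05, adjusted p = 6e-04), rho = 0.923 (permutation p = 6e-05, adjusted p = 9e-04) and r = 0.809 without MPA 2 and vehicle 4.

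Hsd11b1 had r = 0.922 with the fibroblast mean (permutation p = 3.6e-04, adjusted p = 0.00205) and rho = 0.762 (permutation p = 0.00564, adjusted p = 0.0154), falling to r = 0.626 without MPA 2 and vehicle 4. Within MPA r was 0.998 and within vehicle 0.731. Akr1c18 had r = 0.829 with the same mean (permutation p = 0.00211, adjusted p = 0.00575) and rho = 0.664 (permutation p = 0.0223, adjusted p = 0.0335). Without MPA 2 and vehicle 4, which have the lowest fibroblast means, its r was 0.369. Within MPA r was 0.918 and within vehicle 0.558. It was 0.570 without MPA 2 and MPA 5 (adjusted permutation p = 0.131), past no threshold. The relation of Akr1c18 with fibroblast markers thus depends in large part on a few arrays. Hsd17b4 had r = 0.286 (permutation p = 0.365, adjusted p = 0.421), rho = 0.329 (permutation p = 0.297, adjusted p = 0.342) and r = -0.225 without MPA 2 and vehicle 4.

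**Figure D4:**
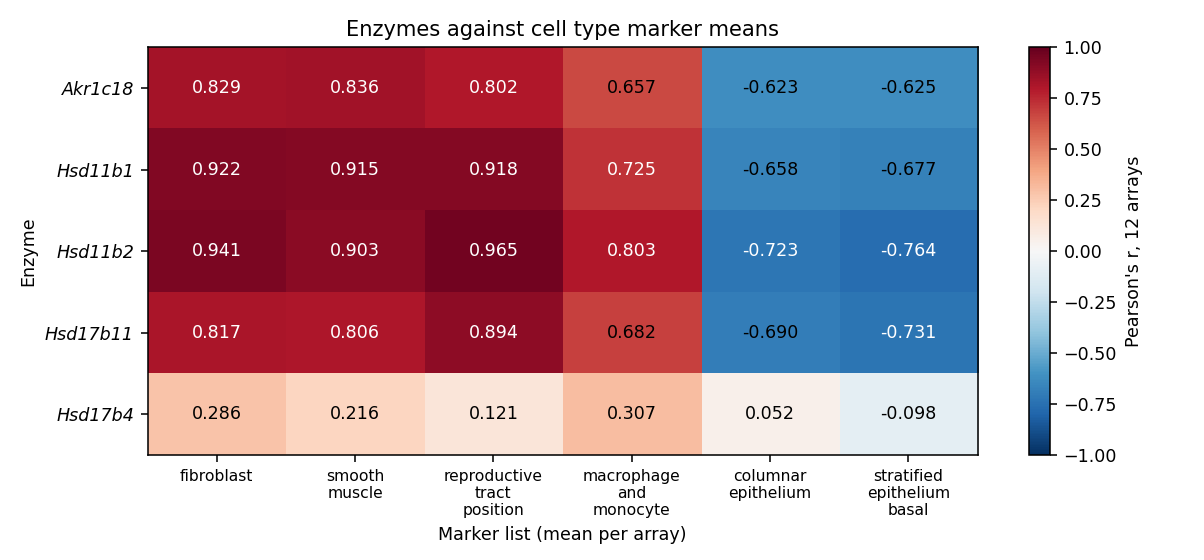
Pearson's r over 12 arrays between each tested enzyme (rows) and the mean of each marker list (columns), on a colour scale from -1 (blue) to 1 (red). Hsd11b2 has 0.965 with the position list and -0.764 with basal epithelium, and Hsd17b4 has no value beyond 0.307 in size.

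With the fibroblast mean as a covariate, a setting added after seeing the data, the SE of the MPA difference fell from 1.19 to 0.43 for Hsd11b1 and from 1.25 to 0.69 for Akr1c18. The differences were then -0.67 (95% interval -1.62 to 0.28, adjusted p = 0.845 by limma) and -0.62 (95% interval -2.13 to 0.89, adjusted p = 0.922 by limma). Hsd11b2 had -0.07 (SE 0.17) and Hsd17b11 -0.04 (SE 0.18). None of the 5 enzymes was called. The part of tissue makeup in the treatment difference was not tested further.

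Genes whose pattern was most like each enzyme were ranked by r over 12 arrays after the mean of each group had been subtracted, as a description. Dpysl2, a cytoskeletal regulator, and Gjc1, a connexin, followed Hsd11b1 with r = 0.991 and 0.986. Chst13, a chondroitin sulfotransferase, and BC028528 followed Hsd11b2 with 0.983 and 0.980. Rnf180, a ubiquitin ligase, and Hmga2, a chromatin protein, followed Hsd17b11 with 0.993 and 0.987. On their lowest arrays Chst13 had 2.86, BC028528 3.58, Rnf180 3.92 and Hmga2 3.22, all under the log2 value of 4. No r without MPA 2 was computed for this ranking. For Akr1c18 the nearest genes were Pepd, a dipeptidase, and Fam13a, both with 0.952, and Hsd11b1 came 6th. The nearest to Hsd17b4 were Me1, the cytosolic malic enzyme, with 0.918 and Sik2, a kinase, with 0.889.

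A wider list of 52 genes for steroid synthesis, transport, conversion and conjugation was set beside the enzymes. Of these, 42 had a probe set and 18 passed the filter. None of the 18 was called over all genes (0 higher and 0 lower), and 3 had an unadjusted p under 0.05, where 5.00% of all genes did. Of the 18, 12 were higher and 6 lower with a median log2 difference of 0.12, beside 4951 higher and 3844 lower with a median of 0.02 over all genes tested. The 6 with the smallest p are given as measured.

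Slco2a1, a prostaglandin transporter of the organic anion family, ran from 8.02 to 8.49 in MPA and from 6.97 to 8.51 in vehicle. Vehicle 4 was the single vehicle array above any MPA array. The log2 difference was 0.60 (SE 0.23, adjusted p = 0.955 by limma). Papss2, which makes the activated sulfate used by sulfotransferases, had 0.77 (SE 0.30, adjusted p = 0.974 by limma), with MPA 2 at 5.51 and the other MPA arrays from 6.63 to 7.49. Hsd17b7, an enzyme of estradiol formation and of cholesterol synthesis, had -0.56 (SE 0.22, adjusted p = 0.973 by limma).

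H6pd supplies the cofactor that lets Hsd11b1 work as a reductase, and had a log2 difference of 0.69 (SE 0.36). Its range over the arrays was 6.55 to 8.82, and its r with Hsd11b1 after subtracting group means was 0.87. Many genes had a larger r, since Hsd17b11 with 0.911 ranked only 279th for Hsd11b1. Hsd17b12, a fatty acid elongation enzyme, had -0.31 (SE 0.17), and Srd5a3, which serves dolichol synthesis and belongs to the family of Srd5a1, had 0.31 (SE 0.18). The adjusted p of these 3 genes was 1.00 by limma. Akr1c14, named after its values were seen, acts on reduced progesterone metabolites and belongs to the same gene family as Akr1c18. It ranged from 5.83 to 10.07 and had r = 0.85 with Akr1c18 after subtracting group means. In the same ranking for Akr1c18, Hsd11b1 with 0.936 came 6th and Hsd11b2 with 0.837 came 348th. Whether probes of these related genes pick up each other's transcripts was not tested. Among the remaining listed genes the log2 difference ran from -0.20 for Akr1c14 to 0.86 for Slc10a6, a carrier of sulfated steroids.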

How the data were processed

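Cervical RNA of 12 samples was hybridised to Affymetrix Mouse430_2 arrays after NuGEN amplification, per the labels' protocols and the file headers. The authors deposited intensity values, 4.39 to 77974 on a linear scale, covering 45101 probe sets. GCRMA, named in the submitters' processing notes without a version, adjusts background, makes arrays comparable and combines probes. Probe-level signals were not used here.

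Log2 was taken without a pseudocount. Probe sets with 1 platform symbol (34958; 932 had several, 9211 none) were reduced to the brightest per gene. The treatment comparison used limma 3.58.1 (R 4.3.3, lmFit and eBayes) on all genes tested, with Benjamini-Hochberg adjustment. Exact tests and correlations (100000 permutations) used scipy 1.17.1 and numpy, with figures from matplotlib 3.10.9. The number of arrays limits the precision. The code was tested on simulated data.

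The members, gene lists and tests were chosen with earlier results of these data known. All members are named, with the 6 smallest p from the wider list and the 2 genes most like each tested member. Samples were not paired by replicate number in the main fit, and 0 of 6 same-numbered pairs had a correlation over 0.1. Such a correlation cannot show whether samples were collected or processed in numbered pairs. Alternatives covered the filter, probe sets, normalization, pseudocount, variance model, array weights, station, replicate number and arrays left out.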

Additional observations from a re-analysis of the deposited data

Results flagged for a closer look

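Within groups of 6 arrays, single values far from the others were sought for the 8 enzymes with a probe set and the 6 wider-list genes named. Of 28 groups, 4 held one. Chance alone gives about 1 in 20 for independent, normally spread values. The groups here share the same arrays and include genes at the bottom of the scale, so that rate need not hold for them. Hsd11b1 had 2.66 on MPA 2, where the nearest MPA array had 8.40. Hsd17b2 had 2.99 on MPA 1 with the next at 2.33, and 2.84 on vehicle 4 with the next at 2.32, all under the log2 value of 4. Papss2 had 6.79 on vehicle 4, where the next vehicle array had 5.99.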

How the results depend on the processing

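No enzyme and no wider-list gene was called in any setting tried. The count of all genes called went from 1 to 0 without the filter on dim genes and with the replicate number as a block. It was also 0 within station 2, with MPA 2 and MPA 5 left out and with the fibroblast mean as a covariate. With any single array left out it was 0 as well, except without vehicle 1, where it stayed at 1. Whether shared replicate numbers pair samples is not known, and the replicate block changed no enzyme's call. The median difference of the 5 enzymes was -0.60 within station 2 and with the station as a block, which share the same contrast, and ran from -0.071 to 0.58 with each array left out (0.58 without MPA 2).

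Several differences near 0 changed sign. Akr1c18 had 0.19 with the pseudocount of 16, 0.48 with array weights, 0.94 with MPA 2 and MPA 5 left out, and -0.74 to 1.03 with each array left out. Hsd11b1 had 0.14, 0.44 and 0.79 in the same settings, and -0.54 to 1.03. Hsd17b4 had -0.011 with quantile normalization, -0.013 with array weights, -0.17 within station 2 and with the station block, and -0.015 to 0.063 with each array left out. Hsd11b2 had -0.60 within station 2 and with the station block, -0.067 with the fibroblast covariate and -0.035 to 0.58 with each array left out, while Hsd17b11 had -0.038 with the covariate and -0.071 to 0.29. Relations with marker means past the threshold went from 23 to 9 with MPA 2 and MPA 5 left out, with 2 arrays fewer. The cause of the other shifts was not tested. Signal near the bottom of the scale limits Hsd17b2, Cyp11a1 and Hsd3b1, and the values of Akr1c18 and Hsd11b1 on MPA 2.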
